A study of Mus musculus with 141 samples.

Results

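The libraries described here are the 68 inguinal (subcutaneous) white fat libraries with the highest or the lowest level of *Trem2* within their sex, out of 67 female and 74 male libraries in all. They were chosen by *Trem2* itself: the 65 female and the 73 male libraries were each ranked by TPM (transcript abundance scaled to a fixed total per library), and the 16 females and 18 males at each end formed a high-*Trem2* group of 34 and a low-*Trem2* group of 34. The remaining 70 libraries lay between them. No treatment or time point separated the groups: all mice, in every group, were inbred strains of a mouse diversity panel raised on chow and then fed a high-fat, high-sucrose diet, and fat was taken after a short fast. No allele was engineered. Each library was made from 1 animal, with at most 1 female and 1 male per strain; the 68 libraries came from 53 strains, 15 of which gave a library of each sex. The female libraries of BXD34/TyJ and BXD69/RwwJ and the male library of NZW/LacJ were not ranked, because their Y-linked transcripts went against the labelled sex.

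TREM2 is a lipid-sensing receptor of the immunoglobulin superfamily on macrophages, microglia and osteoclasts. It signals through the adaptor TYROBP (DAP12), whose phosphorylated motif recruits the kinase SYK, and it can be cleaved from the surface by ADAM10 and ADAM17. In fat of obese mice TREM2 is known as a marker of lipid-associated macrophages, cells that gather around dying adipocytes and carry genes of lysosomes, lipid uptake and cholesterol handling. The libraries held RNA of whole tissue, so a level below is a share of all RNA of the fat pad. Fewer cells of a type and less RNA per cell cannot be told apart in such data.

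The groups were sequenced to like depth. The 68 libraries held 20785244 to 78562648 estimated counts, with a median of 30526066 in the high-*Trem2* and 30204296 in the low-*Trem2* group. Other measures differed. Mitochondrially encoded genes took 4.81% to 12.2% of counts (mean 7.79 ± 1.68, SD, n = 34) in high-*Trem2* and 6.42% to 25.8% (11.98 ± 4.82, SD, n = 34) in low-*Trem2* libraries. The 12 B cell and lymph node genes listed for this report, such as *Cd79a* and *Ccl19*, fell into a low and a high range of summed CPM (counts scaled by library total), with no library of the groups between 91.9 and 263. Above 150 CPM lay 9 of 34 high-*Trem2* libraries and 23 of 34 low-*Trem2* libraries; such libraries are said below to carry lymph node signal, which the inguinal node lying within the fat pad can give. A single low-*Trem2* female, BXD79/RwwJ, held 25656.9 CPM of 8 skeletal muscle genes, against at most 419.9 CPM in every other library of the groups. *Trem2* was ranked as a share of all RNA, and the part of lymph node, muscle or mitochondrial RNA in each difference below was not tested; for each gene group the counts without the libraries of lymph node signal are given as well.

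*Trem2* (ENSMUSG00000023992) lies on chromosome 17 of GRCm38, at 48346401-48354147 on the plus strand. A second identifier, ENSMUSG00000116470, held the same values in every library, as when reads of identical transcripts are split evenly, so each *Trem2* value is the part of the reads assigned to the first. In the low group *Trem2* ran from 0.211 to 0.740 TPM in females (median 0.502) and from 0.318 to 1.66 TPM in males (median 1.04). In the high group it ran from 3.41 to 19.6 TPM in females (median 6.66) and from 13.2 to 76.9 TPM in males (median 18.6). The lowest libraries were the BXD38/TyJ female and the BXD40/TyJ male, and the highest of both sexes were CE/J. These values chose the groups and carry no test. They rested on as few as 12 estimated counts in a low-group library and on up to 2053 in a high-group library.

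The limits between the groups were narrow in females and somewhat wider in males. In females BXD87/RwwJ was the last strain inside the low group, at 0.740 TPM, and SWR/J the next outside it, at 0.782 TPM. The first female inside the high group, BXD44/RwwJ, stood at 3.41 TPM beside AXB12/PgnJ at 3.35 TPM outside it. Male limits fell between AXB19a/PgnJ at 1.66 TPM and BXD51/RwwJ at 1.81 TPM, and between BXD44/RwwJ at 11.99 TPM and BXD56/RwwJ at 13.2 TPM. Within the male high group the CE/J and KK/HlJ libraries stood apart from the other 16. Recombinant inbred BXD strains gave 13 of the high-group and 14 of the low-group libraries.

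**Figure D1:**
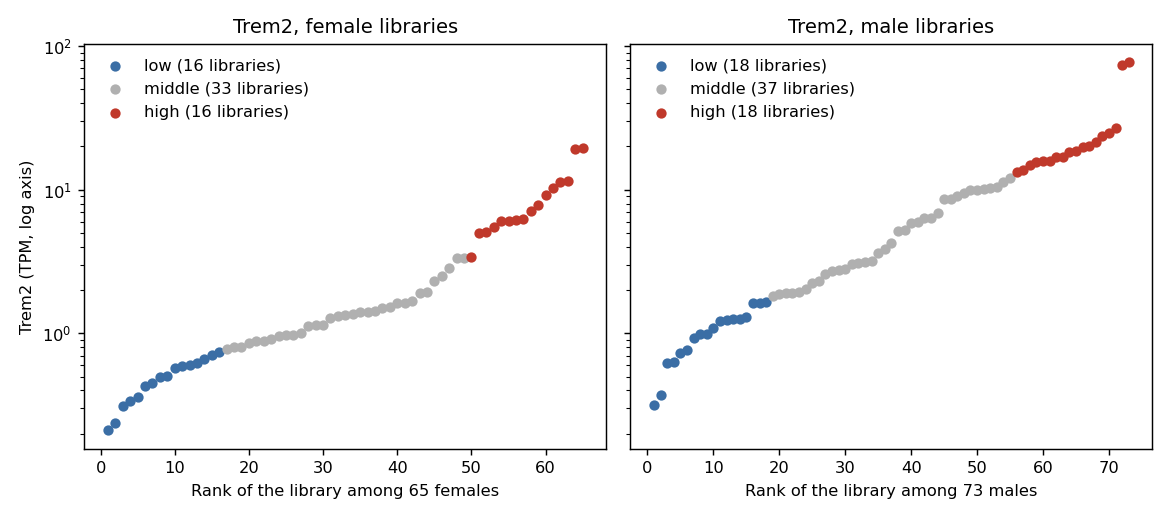
*Trem2* in TPM on a log axis against the rank of each library, females left and males right. Each point is a library; blue points are the low group, red points the high group and grey points the libraries between, and the highest male points (CE/J and KK/HlJ) lie above the other male libraries.

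The sexes of a strain were compared to see whether *Trem2* followed the strain. In 58 strains with a ranked library of each sex, *Trem2* was higher in the male in 51, with a median male to female ratio of 2.70 and a range of 0.251 to 28.1. Of the 13 strains whose female was in the high group, 9 had a male in the high group, 4 a male between the groups and 0 a male in the low group. Of the 16 strains whose female was in the low group, 6 had a male in the low group, 10 a male between and 0 a male in the high group. On the log2(TPM + 0.1) scale the correlation over strains was r = 0.59 (permutation p = 1e-05, the smallest that 100000 resamples can give) and Spearman rho = 0.55 (permutation p = 3e-05), n = 58. Without 129X1/SvJ and CE/J, the strains farthest from the median on the female axis, r was 0.53 and rho 0.51 (permutation p = 6e-05 and 0.0001).

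**Figure D2:**
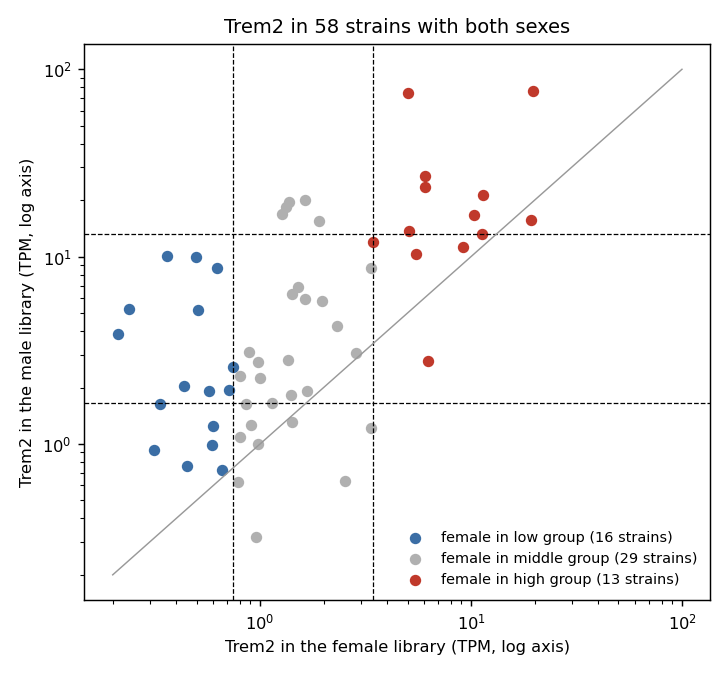
*Trem2* in the male against the female library of 58 strains, TPM on log axes. Points are strains coloured by the group of the female, dashed lines are the group limits of each sex and the grey line marks equal values; 51 of 58 points lie above it, and no strain has a female in 1 extreme group and a male in the opposite one.

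Libraries of the sex that had not been ranked for a grouping gave a test of *Trem2* in animals whose own value did not choose them for that grouping. Males were grouped by the female of their strain: 13 males of strains with a high-group female had 2.78 to 76.9 TPM (median 15.7) and 16 males of strains with a low-group female 0.727 to 10.1 TPM (median 1.99). The difference of mean log2(TPM + 0.1) was 2.76 (4.14 ± 1.22 against 1.38 ± 1.25, SD; two-sided permutation test, adjusted p = 2e-05, the smallest that the test can give). In 12 of the 13, *Trem2* was above the highest of the 16. Females grouped by the male of their strain had 1.27 to 19.6 TPM (median 5.56, n = 14) against 0.312 to 3.35 TPM (median 0.829, n = 16), a difference of 2.36 (2.31 ± 1.41 against -0.06 ± 0.82, SD; adjusted p = 2e-05, two-sided permutation test), and 9 of the 14 were above the highest of the 16.

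Across all other genes the high and low groups differed widely. Of 17600 genes tested with edgeR's quasi-likelihood test and sex as a term, 3774 (21.4%) were higher and 4290 (24.4%) lower in high-*Trem2* libraries at an adjusted p under 0.05, and 408 (2.32%) and 714 (4.06%) of these differed by at least 2-fold. The median log2 fold change over all tested genes was -0.03. The split of directions depended on the scale: on log2(TPM + 1) values, tested with limma, 7264 genes (41.3%) were higher and 998 (5.67%) lower, and the median moved to 0.14. A difference of a group of genes is therefore read below against these shares, and against the shift where it matters. Among the 36 libraries without lymph node signal (25 high, 11 low), 2225 of 17651 genes (12.6%) were higher and 1944 (11%) lower. Among the 32 libraries with that signal (9 high, 23 low), 604 of 18802 (3.21%) were higher and 219 (1.16%) lower. With strain as a block in limma-voom, since 15 strains gave 2 libraries, 3408 (19.4%) were higher and 3275 (18.6%) lower. Under limma-voom without the block, 3888 of the 17600 genes were higher and 4070 lower. Values below with strain as a block thus differ from the main fit in the tool as well as in the block. With a score of the general macrophage markers as a further term, 4932 (28%) were higher and 5057 (28.7%) lower. In few genes did no library of a group overlap the other group's CPM: 3 genes (0.0170%) in females and 28 (0.159%) in males were higher without overlap, and 0 (0%) were lower without overlap in either sex. All fold changes below are log2 values, high against low group, with sex as a term, ± SE where given.

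**Figure D3:**
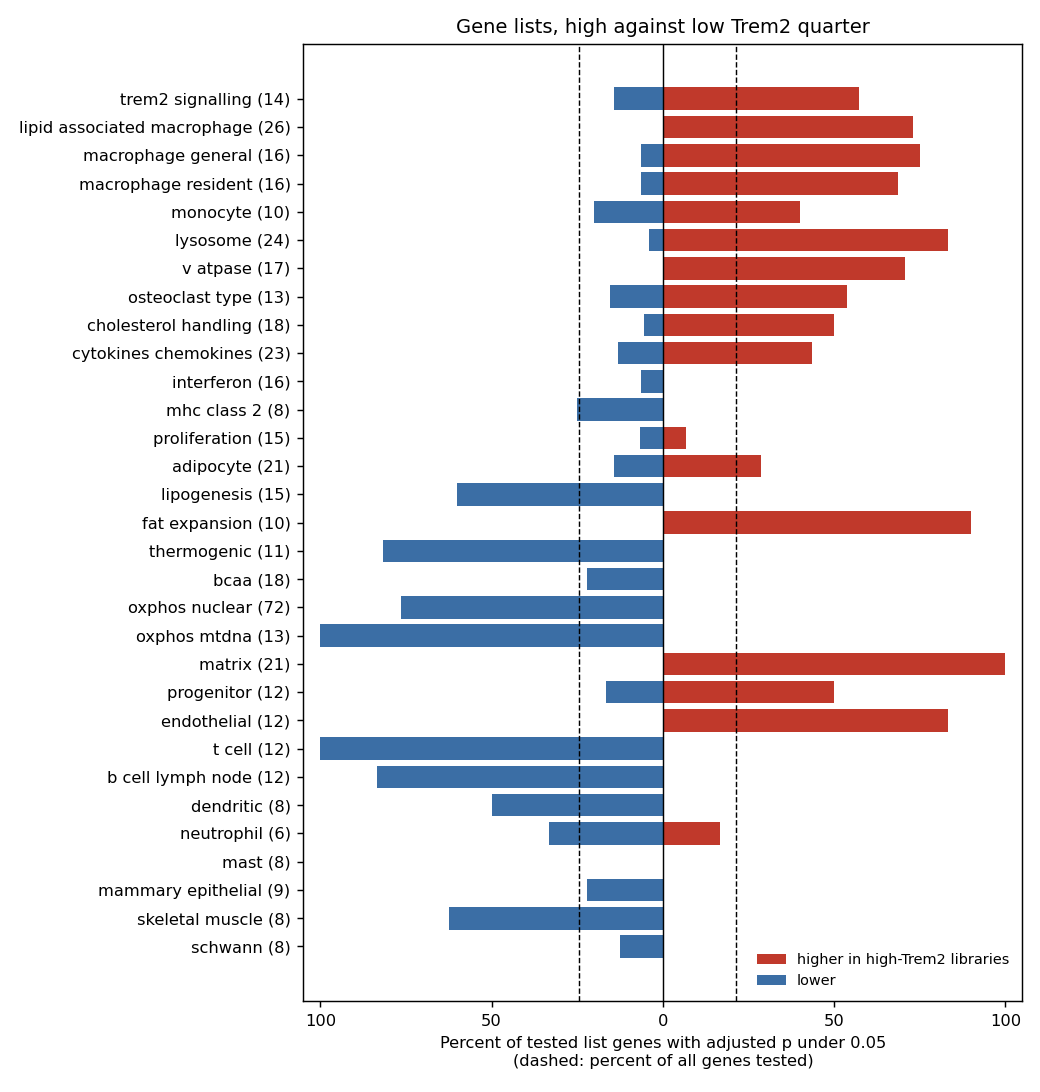
Percent of the tested genes of each of 31 gene lists with an adjusted p under 0.05, higher (red, to the right) or lower (blue, to the left) in high-*Trem2* libraries, with the number of genes tested in parentheses. Dashed lines mark the percent over all 17600 genes, 21.4% higher and 24.4% lower; macrophage, lysosome and matrix lists exceed the first, mitochondrial, thermogenic and lymphocyte lists the second.

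Of the 14 genes around TREM2 signalling, 8 were higher and 2 lower, and the median was 0.17. *Tyrobp*, the adaptor, had 7.44 to 25.3 CPM (median 18.5) in low-group and 11.7 to 45.4 CPM (median 26.9) in high-group females. In males it had 11.3 to 35.9 CPM (median 18.2) against 25.3 to 103.4 CPM (median 51.4), and 15 of the 18 high-group males were above every low-group male. Its fold change was 1.02 ± 0.13 (adjusted p = 4.2e-09). The MS4A genes, which code for membrane proteins of myeloid cells, rose: *Ms4a6d* (1.03, adjusted p = 7.3e-06), *Ms4a7* (0.92, adjusted p = 1.9e-06) and *Ms4a4a* (0.88, adjusted p = 5.5e-05). So did the guanine nucleotide exchange factor *Vav3* (0.57, adjusted p = 4.1e-08), the adaptor *Card9* (0.50, adjusted p = 3.1e-04) and, by little, the sheddases *Adam10* (0.20, adjusted p = 9.2e-04) and *Adam17* (0.15, adjusted p = 0.038). *Pik3ap1*, an adaptor of PI3-kinase also found in B cells, had a fold change of 0.04 ± 0.22 (adjusted p = 0.89).

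The signalling genes that lymphocytes share gave other values in all 68 libraries than in the 36 without lymph node signal. *Hcst* (DAP10), an adaptor of lymphocytes and myeloid cells, fell (-1.15 ± 0.37, adjusted p = 0.010), as did *Vav1* (-0.76 ± 0.30, adjusted p = 0.033), which did not pass with strain as a block (adjusted p = 0.31). The kinase *Syk* (-0.16 ± 0.21, adjusted p = 0.55), the phospholipase *Plcg2* (-0.53 ± 0.24, adjusted p = 0.057) and the phosphatase *Inpp5d* (-0.39 ± 0.21, adjusted p = 0.12) did not pass the test. Among the 36 libraries without lymph node signal, 13 of the 14 genes were higher and 0 lower, with a median of 0.95; *Syk* was then at 1.33 ± 0.15 (adjusted p = 2.3e-07), *Vav1* at 1.05 ± 0.17 (adjusted p = 3.4e-05) and *Plcg2* at 0.84 ± 0.20 (adjusted p = 0.0018). In these libraries *Hcst* did not pass (0.39 ± 0.24, adjusted p = 0.25). *Tyrobp* passed in both, at 1.53 ± 0.19 in the smaller set. Among the 32 libraries with lymph node signal, 4 of the 14 genes were higher and 0 lower (median 0.26).

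**Figure D4:**
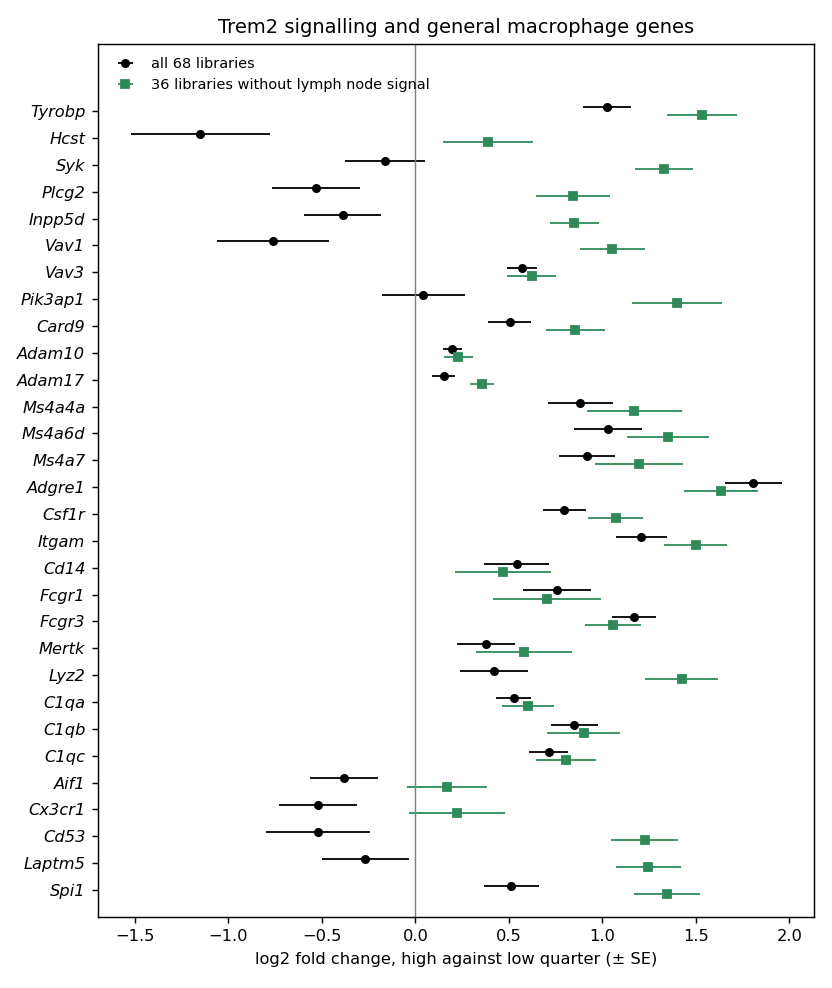
Log2 fold change ± SE of the 14 genes around TREM2 signalling (upper) and 16 general macrophage genes (lower), high against low group, in all 68 libraries (black) and in the 36 without lymph node signal (green). *Syk*, *Plcg2*, *Inpp5d*, *Vav1*, *Cd53* and *Laptm5* lie left of 0 in the first and right of it in the second, while *Tyrobp* and *Adgre1* lie right of 0 in both.

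Most lipid-associated macrophage genes rose. Of 26 such genes other than *Trem2*, 19 were higher and 0 lower, with a median of 0.60. *Mmp12* (ENSMUSG00000049723, chromosome 9:7344381-7369499, plus strand), an elastase of macrophages, had 2.33 to 11.5 CPM (median 5.82) in low-group and 8.997 to 221 CPM (median 70.3) in high-group females. In males it had 2.84 to 54.2 CPM (median 11.1) and 66.3 to 881 CPM (median 330.1); all 18 high-group males were above every low-group male, and 14 of 16 females above every low-group female. The fold change was 4.16 ± 0.29 (adjusted p = 1.3e-18).

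*Atp6v0d2* (ENSMUSG00000028238, chromosome 4:19876841-19922605, minus strand), a subunit of the proton pump of lysosomes that is typical of osteoclasts and lipid-laden macrophages, had 0.449 to 2.92 CPM (median 1.08) in low-group and 2.18 to 37.5 CPM (median 16.5) in high-group females. Males had 0.728 to 7.46 CPM (median 3.15) and 14.1 to 150.1 CPM (median 55.8), without overlap. Its fold change was 4.10 ± 0.24 (adjusted p = 1.6e-21). *Gpnmb* (ENSMUSG00000029816, chromosome 6:49036546-49070929, plus strand), a glycoprotein of stressed lysosomes, had 0.667 to 18.7 CPM (median 8.42) against 2.56 to 233 CPM (median 62.9) in females and 0.917 to 46.01 CPM (median 22.4) against 13.2 to 1269 CPM (median 307) in males. It rose by 3.63 ± 0.38 (adjusted p = 1.5e-11), but some high-group libraries of each sex stayed within the low-group range. In females these were BXD62/RwwJ (2.56 CPM), BXD44/RwwJ (2.82 CPM) and BTBR T<+> tf/J (10.7 CPM). In males they were BXD62/RwwJ (13.2 CPM), DBA/2J (14.1 CPM) and BXD56/RwwJ (19.4 CPM). In the same order, *Mmp12* in these libraries was at 59.8, 59.4 and 10.3 CPM in females and 379, 347 and 218 CPM in males. Whether strain alleles had a part in these *Gpnmb* values was not tested.

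*Itgax* (CD11c), an integrin of macrophages in obese fat and of dendritic cells, had 3.61 to 21.7 CPM (median 10.2) against 4.19 to 54.2 CPM (median 29.5) in females. In males the groups did not overlap, with 5.69 to 23.8 CPM (median 11.3) against 26.3 to 372 CPM (median 85.9). *Itgax* rose by 2.13 ± 0.24 (adjusted p = 1.2e-10). *Lgals3* (galectin-3) rose by 2.13 ± 0.16 (adjusted p = 1.0e-16), with 14.6 to 90.1 CPM (median 40.5) against 70.4 to 299.9 CPM (median 155) in females and 24.2 to 129.3 CPM (median 62.4) against 159.9 to 743 CPM (median 321) in males, again without overlap in males. The endosomal glycoprotein *Cd68* (1.74, adjusted p = 3.8e-14), the cathepsins *Ctsl* (1.12, adjusted p = 3.6e-09), *Ctss* (0.89, adjusted p = 0.0012), *Ctsd* (0.58, adjusted p = 1.7e-05), *Ctsb* (0.53, adjusted p = 8.1e-06) and *Ctsz* (0.38, adjusted p = 6.6e-05), the cathepsin inhibitor *Cstb* (0.90, adjusted p = 2.6e-11) and the acid lipase *Lipa* (1.06, adjusted p = 9.3e-11) were higher too. So were the tetraspanins *Cd9* (0.62, adjusted p = 1.8e-05) and *Cd63* (0.41, adjusted p = 2.9e-07), *Lgals1* (0.63, adjusted p = 3.4e-04), the lipid droplet coat gene *Plin2* (0.48, adjusted p = 0.017), the fatty acid transporter *Cd36* (0.45, adjusted p = 0.003) and the lysosomal cholesterol carrier *Npc2* (0.26, adjusted p = 0.013).

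The other 7 genes of the list did not pass the test. They were *Apoe* (-0.06, adjusted p = 0.70), *Lpl* (0.22, adjusted p = 0.24), *Fabp4* (0.05, adjusted p = 0.76), *Fabp5* (-0.03, adjusted p = 0.92), *Acp5* (0.07, adjusted p = 0.55), *Lpcat2* (-0.44, adjusted p = 0.061) and osteopontin, *Spp1* (0.66, adjusted p = 0.31). *Lpl*, *Fabp4* and *Apoe* are also expressed by adipocytes. Without lymph node signal, 14 of the 26 were higher and 1 lower, *Fabp5* (-0.83 ± 0.26, adjusted p = 0.017), and *Spp1* passed at 2.03 ± 0.57 (adjusted p = 0.0086). *Ctsb*, *Ctsd*, *Lgals1*, *Cd36*, *Plin2* and *Npc2* no longer passed there, while *Mmp12* (4.08 ± 0.46), *Atp6v0d2* (3.73 ± 0.38), *Gpnmb* (3.55 ± 0.57) and *Itgax* (3.11 ± 0.35) had adjusted p of 1.5e-07, 5.1e-08, 2.2e-05 and 1.5e-07.

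**Figure D5:**
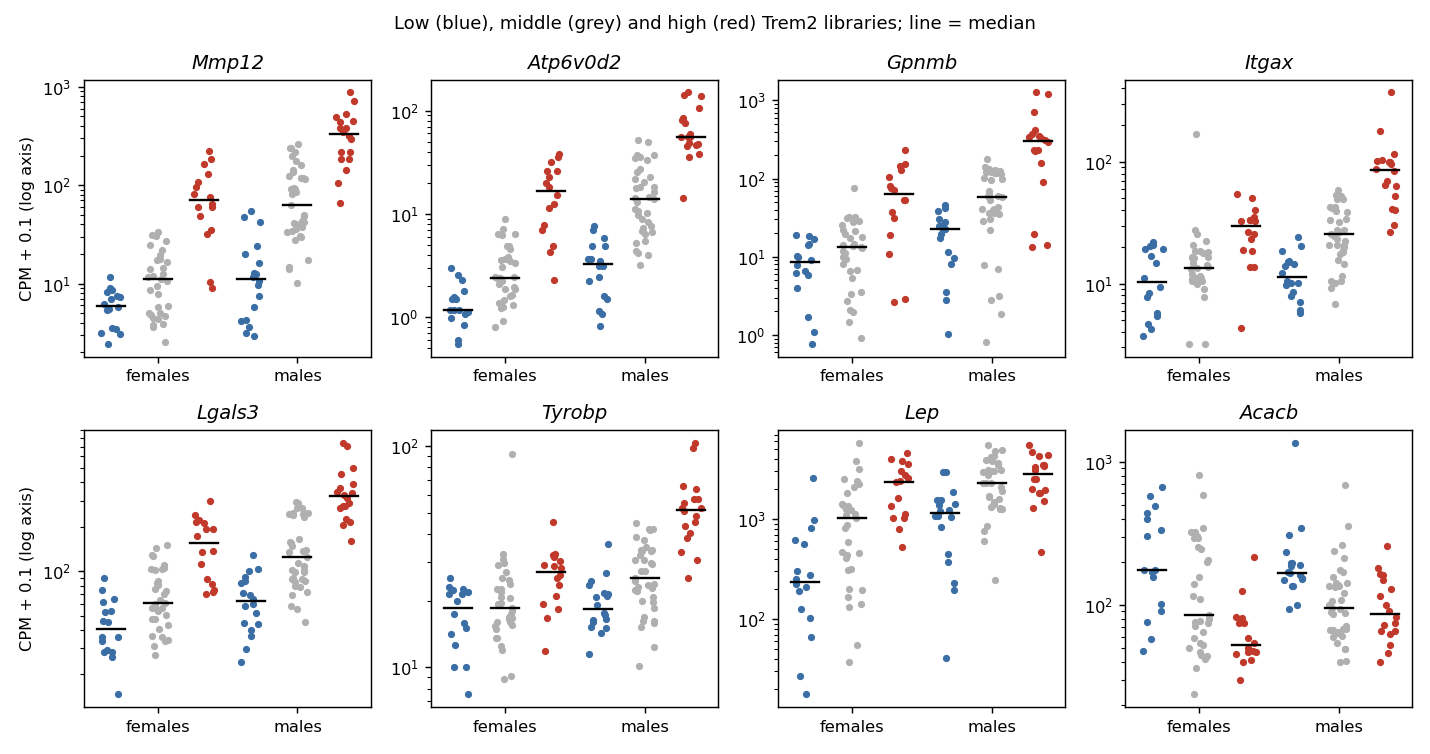
CPM + 0.1 on a log axis of 8 genes in every ranked library, by sex and *Trem2* group (low blue, between grey, high red), with the median as a line. Red points of *Mmp12*, *Atp6v0d2*, *Itgax* and *Lgals3* lie above all blue points in males, *Tyrobp* overlaps in both sexes, *Lep* lies mostly higher and *Acacb* mostly lower in the high group.

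Sequence upstream of the transcript start is shown for *Trem2*, which made the groups, and for 4 macrophage genes that rose and hold a match to the AP-1 motif TGACTCA, searched as TGACTCA and TGAGTCA, the letters of its 2 strands. AP-1 is bound by basic leucine zipper factors; *Atf3*, a gene of that family, rose by 2.58 ± 0.20 (adjusted p = 1.5e-16). Each run is the 250 bases before the start in RefSeq, build GRCm38.p6, written 5′ to 3′ on the strand of the gene, with matches in capitals. Where a gene had several starts, a start that holds a match was shown, and the *Mmp12* window was chosen so. *Trem2* lies at chr17:48346151-48346400, plus strand; *Mmp12* at chr9:7347124-7347373, plus strand, the second of its 2 listed starts; *Itgax* at chr7:128129300-128129549, plus strand; *Cd68* at chr11:69666171-69666420, minus strand; and *C3ar1* at chr6:122856158-122856407, minus strand.
Trem2: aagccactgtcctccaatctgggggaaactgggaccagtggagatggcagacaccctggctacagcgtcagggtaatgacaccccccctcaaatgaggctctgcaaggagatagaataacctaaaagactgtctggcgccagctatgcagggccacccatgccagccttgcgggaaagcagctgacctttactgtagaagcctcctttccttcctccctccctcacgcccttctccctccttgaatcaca
Mmp12: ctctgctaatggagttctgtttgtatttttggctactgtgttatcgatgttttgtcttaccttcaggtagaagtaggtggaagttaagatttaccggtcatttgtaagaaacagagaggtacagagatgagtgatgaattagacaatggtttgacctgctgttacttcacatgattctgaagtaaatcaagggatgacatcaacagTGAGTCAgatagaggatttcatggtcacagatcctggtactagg
Itgax: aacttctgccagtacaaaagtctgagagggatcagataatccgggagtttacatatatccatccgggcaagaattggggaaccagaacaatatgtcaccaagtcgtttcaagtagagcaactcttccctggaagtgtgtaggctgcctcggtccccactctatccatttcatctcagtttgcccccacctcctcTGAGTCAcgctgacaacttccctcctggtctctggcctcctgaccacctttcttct
Cd68: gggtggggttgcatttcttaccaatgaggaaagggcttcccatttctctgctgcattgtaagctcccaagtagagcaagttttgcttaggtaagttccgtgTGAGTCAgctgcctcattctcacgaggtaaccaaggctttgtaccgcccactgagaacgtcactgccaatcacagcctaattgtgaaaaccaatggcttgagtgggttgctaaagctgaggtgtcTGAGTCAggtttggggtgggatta
C3ar1: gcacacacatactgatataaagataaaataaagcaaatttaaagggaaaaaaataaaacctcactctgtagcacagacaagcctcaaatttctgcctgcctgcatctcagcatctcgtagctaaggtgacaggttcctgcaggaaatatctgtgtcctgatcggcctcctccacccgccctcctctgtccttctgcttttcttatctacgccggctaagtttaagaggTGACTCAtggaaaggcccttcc
The letters did not occur in the *Trem2* window and occurred in 4.46% of all 32851 promoter windows of that length. Of the 26 lipid-associated macrophage genes, 19 had a promoter in the table and 3 held a match (*Cd68*, *Itgax* and *Mmp12*). A gene was counted if any of its listed starts held a match, whereas the shares over all are of single windows. The counts of genes and those shares are therefore unlike measures. Of the 16 general macrophage markers described next, 11 had a promoter in the table and 0 held a match to the AP-1 letters. The PU.1-type letters GAGGAAGT, searched on both strands, were in 2 of the 19 (2.44% of all windows), and the E-box TCACGTGA, a site type of lysosomal genes, in 1 of 19 (0.785%). Of the 11 general macrophage promoters 1 held the PU.1-type letters and 0 the E-box. A match is a description of letters, and no binding was measured.

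General macrophage markers were mostly higher. Of 16, 12 were higher and 1 lower, with a median of 0.53. *Adgre1* (F4/80) had 4.76 to 28.1 CPM (median 15.8) against 17.6 to 87.97 CPM (median 47.4) in females and 6.52 to 42.4 CPM (median 22.4) against 45.3 to 201 CPM (median 83.5) in males, without overlap in males. It rose by 1.81 ± 0.15 (adjusted p = 4.5e-15). The integrin *Itgam* (1.21, adjusted p = 1.4e-10), the Fc receptors *Fcgr3* (1.17, adjusted p = 2.6e-12) and *Fcgr1* (0.76, adjusted p = 7.8e-04), the growth factor receptor *Csf1r* (0.80, adjusted p = 1.0e-07), the complement genes *C1qb* (0.85, adjusted p = 2.2e-07), *C1qc* (0.71, adjusted p = 1.4e-07) and *C1qa* (0.53, adjusted p = 1.2e-05), the lipopolysaccharide co-receptor *Cd14* (0.54, adjusted p = 0.0096), the efferocytosis receptor *Mertk* (0.38, adjusted p = 0.041), lysozyme *Lyz2* (0.42, adjusted p = 0.049) and the factor *Spi1* (0.51, adjusted p = 0.0038), which codes for PU.1, rose. The fractalkine receptor *Cx3cr1* (-0.52, adjusted p = 0.035) was lower, but not without lymph node signal (0.22 ± 0.26, adjusted p = 0.58). With strain as a block *Cd14* (0.41, adjusted p = 0.095), *Mertk* (0.32, adjusted p = 0.12) and *Cx3cr1* (-0.45, adjusted p = 0.12) did not pass.

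Markers that other leukocytes share, *Cd53* (-0.52, adjusted p = 0.12), *Laptm5* (-0.27, adjusted p = 0.35) and *Aif1* (-0.38, adjusted p = 0.079), did not pass the test. In the 36 libraries, 11 of the 16 were higher and 0 lower (median 0.98), among them *Cd53* (1.23 ± 0.18) and *Laptm5* (1.25 ± 0.17), at adjusted p of 6.5e-06 and 2.9e-06. Summed over the 16 markers, levels overlapped: 451 to 2031 CPM (median 1035) in low-group and 606 to 1881 CPM (median 1125) in high-group females, and 551 to 2052 CPM (median 1062) and 1002 to 2886 CPM (median 1797) in males.

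Of 16 genes of resident and perivascular macrophages, 11 were higher and 1 lower in the 68 libraries (median 0.57). In the 36 libraries there were 6 higher and 0 lower (median 0.37), and in the libraries with that signal 0 passed. The mannose receptor *Mrc1* (0.88, adjusted p = 7.4e-07), the folate receptor *Folr2* (0.96, adjusted p = 7.2e-06) and the secreted protein *Retnla* (1.01, adjusted p = 9.4e-05) rose, and *Timd4* (-1.53, adjusted p = 0.0021), a phosphatidylserine receptor, fell. *Timd4* was at -0.22 ± 0.29 without lymph node signal (adjusted p = 0.63). Of 10 monocyte genes, 4 were higher, among them *Fn1* (0.98, adjusted p = 4.0e-05) and *Vcan* (0.51, adjusted p = 0.027), and 2 lower, among them *Spn* (-1.28, adjusted p = 0.0059), which lymphocytes also express. In the 36 libraries without lymph node signal, 1 of the 10 was higher and 0 lower.

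Lysosome genes rose together. Of 24, 20 were higher and 1 lower (median 0.32); among those higher were the hydrolases *Gla* (0.86, adjusted p = 1.0e-11), *Gusb* (0.77, adjusted p = 1.1e-13) and *Man2b1* (0.62, adjusted p = 1.5e-08) and progranulin, *Grn* (0.62, adjusted p = 1.1e-09), and the lower gene was the channel *Mcoln1* (-0.12, adjusted p = 0.0047). Of 17 subunits of the vacuolar proton pump, 12 were higher and 0 lower (median 0.23), led by *Atp6v0a1* (0.95, adjusted p = 3.0e-11), *Atp6v1b2* (0.65, adjusted p = 1.6e-10), *Tcirg1* (0.59, adjusted p = 4.8e-06) and *Atp6v1a* (0.51, adjusted p = 1.2e-07). Without lymph node signal the counts were 15 and 0 of 24 lysosome genes, and 5 higher and 2 lower of the 17 pump subunits with a median of 0.03.

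Of 13 osteoclast-type genes tested, 7 were higher and 2 lower (median 0.51). *Tm4sf19*, a tetraspan membrane protein, was near the detection floor in the low group. It had 0 to 4 estimated counts in low-group females, at or under 3 counts in 14 of 16, against 5 to 65 in high-group females, and 0 to 22 against 64 to 497 in males. It passed the filter on low counts through its high values, so no fold change is given. *Dcstamp*, which acts in the fusion of osteoclasts and macrophages, did not overlap in females (0.106 to 0.530 CPM (median 0.309) against 0.643 to 2.85 CPM (median 1.36)). Its low-group female values rest on few counts, so this gap is uncertain and no fold change is given. The sugar phosphate exchanger *Slc37a2* (1.76, adjusted p = 1.0e-11) was higher as well, and the receptor *Oscar* (-0.67, adjusted p = 0.015) and the factor *Nfatc1* (-0.32, adjusted p = 0.018) were lower. With strain as a block *Oscar* (-0.54, adjusted p = 0.070) and *Nfatc1* (-0.23, adjusted p = 0.13) did not pass, and without lymph node signal *Nfatc1* was higher (0.26 ± 0.07, adjusted p = 0.0054), with 8 higher and 1 lower (median 0.65) of the 13. Of 18 genes of cholesterol handling, 9 were higher and 1 lower (median 0.25): the oxidised LDL receptor *Olr1* (2.61, adjusted p = 2.7e-12), the scavenger receptor *Msr1* (1.01, adjusted p = 1.0e-04), the phospholipid transfer protein *Pltp* (0.94, adjusted p = 4.1e-08) and the cholesteryl ester hydrolase *Nceh1* (0.88, adjusted p = 8.4e-05) rose, and cholesterol 25-hydroxylase, *Ch25h* (-0.76, adjusted p = 0.040), fell. In the 36 libraries there were 7 higher and 0 lower (median 0.17).

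Inflammatory genes were mixed. Of 23 cytokine and chemokine genes tested, 10 were higher and 3 lower (median 0.15). The IL-1 receptor antagonist *Il1rn* had 0.387 to 9.50 CPM (median 2.42) against 1.39 to 15.99 CPM (median 6.50) in females and 0.851 to 14.1 CPM (median 2.07) against 7.46 to 45.7 CPM (median 20.3) in males, and rose by 2.17 ± 0.29 (adjusted p = 2.4e-08). The chemokines *Ccl9* (1.79, adjusted p = 4.0e-12), *Cxcl2* (1.64, adjusted p = 2.5e-08) and *Ccl2* (1.59, adjusted p = 2.4e-09) rose too, and *Ccl5* (-1.46, adjusted p = 0.0072), oncostatin M, *Osm* (-1.06, adjusted p = 0.019), and *Tnf* (-0.70, adjusted p = 0.035) fell. With strain as a block *Osm* (-0.74, adjusted p = 0.20) and *Tnf* (-0.58, adjusted p = 0.16) did not pass, and without lymph node signal *Osm* was higher (1.08 ± 0.27, adjusted p = 0.0035). Of 16 interferon-induced genes, 0 were higher and 1 was lower, and 0 passed without lymph node signal. Of 8 genes of MHC class II presentation, 0 were higher and 2 lower, *H2-DMb2* (-1.34, adjusted p = 0.013) and *Ciita* (-0.71, adjusted p = 0.0497). These 2 of 8 are near the share of all genes lower (24.4%). Without lymph node signal 6 of the 8 were higher and 0 lower (median 0.58). Of 15 proliferation genes, 1 was higher, *Cdk1* (0.48, adjusted p = 0.012), and 1 lower, *Mcm2* (-0.42, adjusted p = 0.038), whereas without lymph node signal 12 were higher and 0 lower (median 1.24). Counts of cytokine genes there were 13 higher and 0 lower.

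The 12 genes with the largest rise that passed in each sex were *Itgad*, *Tph2*, *Mmp12*, *Atp6v0d2*, *F7*, *Gpnmb*, *Myh15*, *Lipf*, *Dcstamp*, *Gdf3*, *Hpx* and *Olr1*. *Itgad* (CD11d), an integrin of macrophages in obese fat and spleen, had 0.141 to 1.62 CPM (median 0.409) against 0.552 to 69.6 CPM (median 7.02) in females and 0.126 to 3.78 CPM (median 0.934) against 4.30 to 257 CPM (median 37.7) in males, a rise of 5.27 ± 0.42 (adjusted p = 4.5e-16) without overlap in males. *Tph2*, best known as the tryptophan hydroxylase of serotonin neurons, had 0.0349 to 11.2 CPM (median 0.346) against 1.84 to 158 CPM (median 33.8) in females and 0.0351 to 24.4 CPM (median 2.96) against 2.69 to 160.3 CPM (median 68.8) in males, a rise of 4.34 ± 0.48 (adjusted p = 9.0e-11). *F7*, coagulation factor VII, rose by 3.98 ± 0.27 (adjusted p = 6.9e-19), with 0.0316 to 2.56 CPM (median 0.544) against 4.81 to 18.4 CPM (median 8.90) in males, without overlap. The lowest low-group values of *Itgad*, *Tph2* and *F7* rest on few counts, so the sizes of these rises, and the places of these genes among the largest, are uncertain. Also among the 12 were *Myh15* (3.34, adjusted p = 9.1e-11), a myosin heavy chain, *Lipf* (3.31, adjusted p = 6.8e-08), named as gastric lipase, *Gdf3* (3.07, adjusted p = 8.2e-07), a TGF-beta family ligand, and *Hpx* (2.77, adjusted p = 1.6e-06), the haem-binding hemopexin. Low-group levels of *Myh15*, *Lipf*, *Gdf3* and *Hpx* are not given here, and how near they lay to the detection floor was not tested.

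The 12 genes with the largest fall that passed in each sex were *Elovl3*, *Acot11*, *Aspg*, *Apol7b*, *Acsm3*, *Tuba8*, *Cidea*, *Cyp2e1*, *Tlr1*, *Acacb*, *Pank1* and *Gal3st2b*. Several act in lipid or coenzyme A metabolism: *Acot11* (-2.33, adjusted p = 5.9e-06) is an acyl-CoA thioesterase, *Acsm3* (-2.11, adjusted p = 7.5e-07) an acyl-CoA synthetase, *Pank1* (-1.54, adjusted p = 2.0e-06) a pantothenate kinase and *Acacb* (-1.57, adjusted p = 2.5e-07) the acetyl-CoA carboxylase of mitochondria. *Acacb* had 47.7 to 671 CPM (median 175) against 29.7 to 216 CPM (median 51.8) in females and 93.9 to 1359 CPM (median 167) against 39.5 to 259 CPM (median 86.1) in males, with overlap in each sex. *Aspg* (-2.22, adjusted p = 2.6e-06) is an asparaginase, *Tuba8* (-1.95, adjusted p = 1.2e-08) an alpha-tubulin and *Cyp2e1* (-1.87, adjusted p = 1.2e-05) a cytochrome P450. The toll-like receptor *Tlr1* (-1.61, adjusted p = 5.5e-04), *Apol7b* (-2.22, adjusted p = 7.1e-04) and *Gal3st2b* (-1.49, adjusted p = 3.1e-04) were lower too, but without lymph node signal *Tlr1* was higher (1.41 ± 0.36, adjusted p = 0.0037), and *Apol7b* (0.10 ± 0.72) and *Gal3st2b* (-0.48 ± 0.30) had adjusted p of 0.94 and 0.26.

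Of 10 genes linked to growth of the fat pad, 9 were higher and 0 lower (median 0.94). Of them 5 were higher in the 36 libraries without lymph node signal (median 0.65), and in the libraries with that signal 0 (median 0.69). *Mest*, an imprinted gene known to rise with fat mass, had 2.62 to 584 CPM (median 40.6) against 82.3 to 2166 CPM (median 567) in females and 17.8 to 1217 CPM (median 246) against 65.97 to 2497 CPM (median 1059) in males, a rise of 2.15 ± 0.41 (adjusted p = 2.4e-05). *Lep*, leptin, had 17.6 to 2547 CPM (median 237) against 523 to 4541 CPM (median 2375) in females and 40.8 to 2981 CPM (median 1138) against 465 to 5469 CPM (median 2797) in males, a rise of 1.75 ± 0.30 (adjusted p = 5.9e-06). The Wnt inhibitor *Sfrp5* (1.77, adjusted p = 2.1e-04) and *Trp53inp2* (1.20, adjusted p = 2.9e-07) rose as well. Of 21 adipocyte genes, 6 were higher and 3 lower (median 0.09): besides *Lep*, the lipid droplet gene *Cidec* (0.60, adjusted p = 1.0e-03) was higher, and adipsin, *Cfd* (-1.31, adjusted p = 2.9e-06), the beta-3 adrenergic receptor, *Adrb3* (-1.22, adjusted p = 8.5e-06), and *Irs1* (-0.40, adjusted p = 0.0016), of insulin signalling, were lower. Over all genes tested, 21.4% were higher and 24.4% lower, so the counts of adipocyte genes are not far from those shares. Without lymph node signal 1 of the 21 was higher and 7 lower.

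Lipogenic genes were lower, 9 of 15 with 0 higher (median -0.80). Beside *Acacb* these included *Thrsp* (-1.47, adjusted p = 1.7e-04), the elongase *Elovl6* (-1.26, adjusted p = 0.0046) and the cytosolic carboxylase *Acaca* (-1.19, adjusted p = 5.4e-05). In the smaller set 11 of 15 were lower (median -1.44), and in the libraries with that signal 1 (median -0.26). In the single-sex fits 10 of 15 were lower in females (median -1.40) and 1 of 15 in males (median -0.27); the difference between the sexes passed the test for 0 of them.

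Thermogenic genes were lower, 9 of 11 tested with 0 higher (median -1.44), but a few low-group libraries stood far above the rest. *Ucp1*, the uncoupling protein of brown and beige adipocytes, had 1.13 to 2666 CPM (median 25.4) in low-group and 0.0810 to 95.1 CPM (median 6.77) in high-group females. In males the medians ran the other way, with 0.136 to 1614 CPM (median 9.35) against 0.870 to 291 CPM (median 31.01). The female libraries above every high-group female were 6 of 16, from BXD12/TyJ, BXD14/TyJ, BXD38/TyJ, BXD50/RwwJ, FVB/NJ and SJL/J, and the male ones 2 of 18, from SJL/J and SWR/J. The fold change of *Ucp1* was -2.68 ± 0.74 (adjusted p = 0.0028), that of *Elovl3*, a fatty acid elongase, -3.13 ± 0.69 (adjusted p = 2.1e-04) and that of *Cidea*, a lipid droplet protein, -1.88 ± 0.37 (adjusted p = 4.0e-05). On log2(TPM + 1) values 4 of the 11 were lower and 0 higher, and the median was -0.52; in the smaller set 8 were lower (median -1.57) and in the 32 libraries with lymph node signal 0. With strain as a block in limma-voom 5 of the 11 were lower, and *Ucp1* (-0.72 ± 0.81, adjusted p = 0.50) and *Elovl3* (-0.63 ± 0.75, adjusted p = 0.53) did not pass. The parts of the tool and of the block in this were not told apart.

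Genes of oxidative phosphorylation were lower. All 13 genes of mitochondrial DNA fell (median -0.73). *mt-Atp6*, a subunit of ATP synthase, had 5442 to 40378 CPM (median 10479) against 5239 to 10948 CPM (median 6807) in females and 5731 to 42689 CPM (median 11076) against 4039.5 to 13773 CPM (median 8371) in males, and fell by 0.84 on the log2 scale (SE 0.15, adjusted p = 1.0e-05). Of 72 nuclear genes of the respiratory complexes, 55 were lower and 0 higher (median -0.31), with *Sdhb* (-0.54, adjusted p = 1.3e-04), *Uqcrc2* (-0.51, adjusted p = 1.3e-04), *Uqcrfs1* (-0.48, adjusted p = 8.4e-04) and *Cox5a* (-0.47, adjusted p = 0.0011) the largest. In the 36 libraries without lymph node signal 70 of 72 were lower (median -0.54), and in the 32 with it 0 passed (median -0.30). With a macrophage score as a term 3 were higher and 3 lower (median -0.05). In females 38 were lower and in males 11. The 13 genes of mitochondrial DNA were all lower in the smaller set (median -0.99), and 1 was lower in the 32. On log2(TPM + 1) values 11 of the 72 were higher and 6 lower with a median of -0.03, against a median of 0.14 over all genes on that scale. Of 18 genes of branched-chain amino acid breakdown, 4 were lower and 0 higher (median -0.16), *Ivd* (-0.47, adjusted p = 9.2e-04), *Bcat2* (-0.36, adjusted p = 0.022), *Mccc1* (-0.31, adjusted p = 0.022) and *Bckdha* (-0.31, adjusted p = 0.021). These 4 of 18 are near the share of all genes. In the 36 libraries 16 were lower (median -0.46), with a macrophage score as a term 7 were higher and 0 lower (median 0.19), and on log2(TPM + 1) values 6 were higher and 0 lower.

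Matrix genes rose: 21 of 21 were higher (median 0.93), with *Col5a2* (1.11, adjusted p = 2.0e-09), *Loxl2* (1.03, adjusted p = 6.6e-08), *Col6a2* (1.01, adjusted p = 1.0e-06) and the metalloproteinase inhibitor *Timp1* (1.01, adjusted p = 0.0025) the largest. *Col5a2* had 64.99 to 308 CPM (median 177) against 225 to 796 CPM (median 498) in females and 125.7 to 757 CPM (median 294) against 318 to 886 CPM (median 562) in males. Of 12 adipocyte progenitor genes, 6 were higher and 2 lower (median 0.37), with *Cd34* (0.64, adjusted p = 2.1e-05) and *Pdgfrb* (0.63, adjusted p = 1.1e-05) among those higher and *Icam1* (-0.44, adjusted p = 0.017) and *Cd55* (-0.34, adjusted p = 0.016) lower; with strain as a block *Icam1* (-0.35, adjusted p = 0.093) and *Cd55* (-0.28, adjusted p = 0.096) did not pass. In the smaller set there were 4 higher and 0 lower (median 0.22), and *Icam1* (0.24, adjusted p = 0.11) and *Cd55* (0.01, adjusted p = 0.98) did not pass. Of 12 endothelial genes, 10 were higher and 0 lower (median 0.32), led by *Vwf* (0.56, adjusted p = 0.0027) and *Cdh5* (0.48, adjusted p = 0.0025). In the smaller set 18 of 21 matrix genes and 0 of 12 endothelial genes were higher, and in the 32 libraries with lymph node signal 3 and 0.

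Lymphocyte genes were lower in the high group, along with the lymph node signal given above. All 12 T cell genes fell (median -1.61) and 10 of 12 B cell and lymph node genes (median -1.58). *Cd79a*, a part of the B cell receptor, had 0.597 to 217 CPM (median 91.8) against 0.306 to 167 CPM (median 0.979) in females and 0.6998 to 188 CPM (median 94.03) against 0.303 to 147 CPM (median 1.32) in males (fold change -1.64 ± 0.66, adjusted p = 0.036). *Cd3e* of the T cell receptor complex was at -1.70 ± 0.55 (adjusted p = 0.010). Of 8 dendritic cell genes 4 were lower and 0 higher, among them *Ccr7* (-1.62, adjusted p = 0.023) and *Flt3* (-1.24, adjusted p = 0.0075). With strain as a block 1 of the 8 was lower, and *Ccr7* (-1.96, adjusted p = 0.070) and *Flt3* (-1.02, adjusted p = 0.076) did not pass. In the smaller set 1 of the 8 was higher, *Ccr7* (0.93 ± 0.33, adjusted p = 0.039), and *Flt3* did not pass (0.59 ± 0.25, adjusted p = 0.087). Among libraries without lymph node signal, 0 of the 12 T cell genes and 0 of the 12 B cell genes passed, and *Cd79a* was at -0.24 ± 0.42 (adjusted p = 0.73). The 12 B cell and lymph node genes themselves chose these libraries, by the limit of 150 CPM. Their values there, *Cd79a* among them, are therefore no test of a difference.

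Markers of other cells that a fat pad can hold were also counted. Of 6 neutrophil genes tested 1 was higher, *S100a8* (1.44, adjusted p = 5.0e-04), and 2 lower, *S100a9* (-1.13, adjusted p = 0.023) and *Cxcr2* (-0.88, adjusted p = 0.0019). Of 8 mast cell genes, *Tpsb2* (0.30, adjusted p = 0.25) and *Hdc* (0.22, adjusted p = 0.26) had the largest differences and did not pass, nor did the other 6; without lymph node signal 3 of the 8 were higher. Of 9 mammary epithelial genes 2 were lower, *Epcam* (-0.96, adjusted p = 0.025) and *Cldn7* (-1.08, adjusted p = 0.028), which is near the share of all genes lower (24.4%). In females alone 0 of the 9 passed (median 0.04), and in males both of the 2 tested were lower. Summed over the 9 genes, male levels were low, with a median of 3.66 CPM in the low and 1.60 CPM in the high group. Of 8 Schwann cell genes 0 were higher and 1 was lower. In the smaller set 2 of 6 neutrophil genes were higher, 0 of 9 mammary genes passed and 2 of 8 Schwann cell genes were lower; with strain as a block *Epcam* (-0.30, adjusted p = 0.45), *Cldn7* (-0.36, adjusted p = 0.33) and *S100a9* (-0.35, adjusted p = 0.51) did not pass. Skeletal muscle genes were lower in 5 of 8, among them *Mylpf*, *Ckm*, *Tnnt3* and *Atp2a1*, but without BXD79/RwwJ these did not pass: *Mylpf* (-0.41 ± 0.26, adjusted p = 0.20), *Ckm* (0.11 ± 0.45, adjusted p = 0.85), *Tnnt3* (0.22 ± 0.44, adjusted p = 0.70) and *Atp2a1* (0.30 ± 0.70, adjusted p = 0.75). With it they were at -2.53, -2.84, -2.64 and -2.94. In the smaller set, which holds that female, 8 of 8 were lower, and in the 32 libraries 4 were higher.

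Each sex was also tested alone. In females 2553 of 16521 genes (15.5%) were higher and 2452 (14.8%) lower, and in males 1737 of 16250 (10.7%) higher and 1260 (7.75%) lower. Of the 26 lipid-associated macrophage genes, 12 were higher in females (median 0.31) and 19 in males (median 0.78), with 0 lower in either. Matrix genes were higher in 20 of 21 in females and 18 of 21 in males. Other lists had more calls in females than in males: resident macrophage genes 12 against 5 of 16 higher, fat expansion 9 against 4 of 10 higher, endothelial 7 against 1 of 12 higher, lipogenic 10 against 1 of 15 lower and nuclear respiratory 38 against 11 of 72 lower. The difference between the sexes itself passed for 0 genes of these 5 lists. The test of the difference between the sexes passed for 66 genes (0.375%) with a higher and 15 (0.0852%) with a lower fold change in males. Among the macrophage genes these were *Itgax* (1.20 ± 0.30 in females, 2.94 ± 0.28 in males, adjusted p of the difference = 0.022), *Cd9* (0.13 ± 0.15 and 1.05 ± 0.12, adjusted p = 0.014), *Nceh1* (0.16 ± 0.23 and 1.51 ± 0.21, adjusted p = 0.023), *Tcirg1* (0.14 ± 0.12 and 0.98 ± 0.13, adjusted p = 0.0079) and *Atf3* (1.69 ± 0.22 and 3.35 ± 0.23, adjusted p = 0.0031), all edgeR quasi-likelihood tests. Several muscle genes were among the 66, and without BXD79/RwwJ the counts were 39 and 26.

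The same genes were then tested in libraries of the other sex, which the *Trem2* ranking of that grouping had not used. In 29 males grouped by the female of their strain (13 high, 16 low), 423 of 15905 genes (2.66%) were higher and 243 (1.53%) lower. Of the 423, 269 (63.6%) were among the 2553 genes higher in the female groups themselves, which is 10.5% of those, and 52.7% of the 243 were among the 2452 lower, 5.22% of those. The males were other animals, but of the same strains. By their own *Trem2*, 9 of the 13 were also in the male high group and 6 of the 16 in the male low group. Of the 26 lipid-associated macrophage genes 10 were higher and 0 lower (median 0.41), including *Gpnmb* (2.64, adjusted p = 0.023), *Mmp12* (2.34, adjusted p = 0.013), *Itgax* (2.15, adjusted p = 0.0033) and *Atp6v0d2* (2.12, adjusted p = 0.022). Of the 16 general macrophage markers 7 were higher, among them *Adgre1* (1.39, adjusted p = 0.010), and of 21 matrix genes 7, among them *Col5a2* (0.78, adjusted p = 0.018). By edgeR, none of 10 fat expansion, 15 lipogenic, 72 nuclear respiratory, 12 T cell or 12 B cell genes passed there.

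In 30 females grouped by the male of their strain (14 high, 16 low), 6 of 16788 genes (0.0357%) were higher and 0 (0%) lower, while 2337 had an unadjusted p under 0.05. By their own *Trem2*, 9 of the 14 females were also in the female high group and 6 of the 16 in the female low group. The 6 genes higher were *Trem2* itself, *Tph2* (4.96, adjusted p = 0.0079), *Mmp12* (3.18, adjusted p = 0.0025), *Atp6v0d2* (2.80, adjusted p = 0.0058), *Fam20c* (1.73 ± 0.33, adjusted p = 0.028) and *Efcab8* (2.00 ± 0.34, adjusted p = 0.0079). *Gpnmb* (1.85 ± 0.61, adjusted p = 0.25), *Itgax* (0.19 ± 0.46, adjusted p = 0.85) and *Adgre1* (0.44 ± 0.30, adjusted p = 0.47) did not pass. The 16 low-side females included AXB12/PgnJ, with 168.19 CPM of *Itgax*, against at most 54.2 CPM in every other ranked female. The fit was not repeated without this library, so its part in these values was not tested. *Tph2* was at 1.56 ± 0.60 in the males by female grouping (adjusted p = 0.13). *Mmp12* and *Atp6v0d2* passed in both groupings. Whether a gene's difference differed between the groupings was not tested.

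The 70 libraries between the groups, which lay outside the main comparison, were used for a graded fit of each gene on log2(TPM + 0.1) of their own *Trem2*. The coefficient was scaled to the distance of 4.08 between the group means. Of 16696 genes 904 (5.41%) rose and 630 (3.77%) fell with *Trem2*. Of the 26 lipid-associated macrophage genes 14 rose and 0 fell (median 0.90), led by *Mmp12* (4.40, adjusted p = 6.5e-09), *Atp6v0d2* (4.23, adjusted p = 3.2e-11), *Gpnmb* (3.74, adjusted p = 0.0015) and *Itgax* (3.15, adjusted p = 1.8e-06). Lysosome genes rose in 12 of 24, proton pump subunits in 8 of 17, general macrophage markers in 9 of 16, cytokine genes in 11 of 22 and matrix genes in 8 of 21, with 0 falling in each. Several lists that differed in the main comparison had few calls here, though their medians were near those of the main comparison or larger. Resident macrophage genes rose in 1 of 16 (median 0.57), fat expansion in 2 of 10 (median 1.26) and endothelial in 1 of 12 (median 0.42). Lipogenic genes fell in 2 of 15 (median -0.73) and thermogenic in 1 of 11 (median -1.34). Mammary epithelial genes had more calls than in the main comparison and fell in 5 of 9 (median -4.07). Their summed level in males between the groups was 0.295 to 316 CPM (median 2.60), so this median rests partly on low values. Of the 13 mitochondrially encoded genes 4 fell (median -0.90) and of the 72 nuclear respiratory genes 0 (median -0.30). T cell and B cell genes did not pass, 0 of 12 each, and their medians were smaller here (-0.69 and -1.02) than in the main comparison (-1.61 and -1.58). This fit was added after the comparison above had been seen.

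The genes whose levels were most like *Trem2* over all ranked libraries were found by Spearman's rho of TPM within each sex, averaged over the sexes, among 14994 genes with a mean of at least 1 TPM. The points share library, depth and composition, so rho is a description. The 10 highest were *Atp6v0d2* (0.88), *F7* (0.88), *C3ar1* (0.87), *Tm4sf19* (0.87), *Cd300lb* (0.86), *Lgals3* (0.85), *Mmp12* (0.84), *Metrnl* (0.83), *Tmem106a* (0.82) and *Atf3* (0.82). *C3ar1* is the receptor of complement fragment C3a, *Cd300lb* an activating receptor of myeloid cells and *Metrnl* a secreted protein. In each of the 10 rho was higher in males (0.85 to 0.96, n = 73) than in females (0.71 to 0.82, n = 65).

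Genes beside *Trem2* on chromosome 17 were looked at to see whether they moved with it. Within 500 kb lay 21 annotated genes, of which 8 passed the filter on low counts: 0 were higher and 3 lower (median -0.27). *Oard1*, an ADP-ribose hydrolase, was at -0.34 ± 0.06 (adjusted p = 5.4e-06), with 10.9 to 16.4 CPM (median 12.8) against 8.33 to 13.2 CPM (median 10.96) in females. *Foxp4*, a forkhead factor, was at -0.24 ± 0.09 (adjusted p = 0.031; 0.14 with strain as a block) and *Treml2*, a TREM-like receptor of lymphocytes and myeloid cells, at -1.50 ± 0.58 (adjusted p = 0.031). Without lymph node signal *Treml2* (-0.01 ± 0.25, adjusted p = 0.99) and *Foxp4* (0.20 ± 0.10, adjusted p = 0.17) did not pass and *Oard1* did (-0.29 ± 0.07, adjusted p = 0.003). *Treml4* (-0.31 ± 0.22, adjusted p = 0.25), *Nfya* (-0.04 ± 0.08, adjusted p = 0.73), *Unc5cl* (-0.84 ± 0.42, adjusted p = 0.094), *B430306N03Rik* (0.06 ± 0.26) and *A530064D06Rik* (0.30 ± 0.14) did not pass. Like *Trem2*, the first 3 of these, *B430306N03Rik*, *Oard1*, *Foxp4* and *Treml2* share their values with a second identifier.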

How the data were processed

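Inguinal white fat RNA of 141 mice (67 female, 74 male) from 82 inbred strains was sequenced from poly(A) libraries. The authors quantified reads with kallisto 0.46.1 (mm10) and summed transcripts to genes; they deposited estimated counts, not normalized, and TPM, and 0 columns of values were left unused. Both hold 36558 genes in common, 35856 of them with a symbol. Libraries were grouped by *Trem2* TPM within sex, each group being the ranked libraries of the sex divided by 4, rounded down. Members and gene lists were chosen with earlier results of these data known.

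Estimated counts as deposited by the authors were rounded to whole numbers, filtered with filterByExpr, scaled with TMM and tested with edgeR 4.0.16 (glmQLFit, glmQLFTest) in R 4.3.3, with sex as a term and Benjamini-Hochberg adjustment over all genes tested; an adjusted p under 0.05 is a call. *Trem2* and the identifier with the same values were not tested in the main comparison. Of the 17600 genes tested, 358 share all values with another. Each sex, their difference (interaction), the other sex of each strain and the libraries between the groups were fitted likewise. Alternatives used DESeq2 1.42.0, limma 3.58.1 (voom; log2 of TPM with pseudocounts of 0.1 and 1), other filters, scalings, covariates and libraries. The fit was tested on simulated data. Permutation tests used 100000 resamples in scipy 1.17.1. Libraries are 1 animal per strain and sex, so the spread includes strain differences, and strains with a library of each sex enter 2 times in the main fit.

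The text names *Trem2*, all members of the 3 macrophage lists (signalling, lipid-associated, general), up to 4 called members with the largest change of each other list (the 2 largest where none passed), the 12 largest changes in each direction that were at least 2-fold, at a mean of 1 CPM and called in each sex, genes within 500 kb of *Trem2* and the 10 most like it. A few further genes were named after their values were seen: *Osm*, *Fam20c*, *Efcab8* and others where few members of a list were lower. Some genes that this rule names are not reported here.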

Additional observations from a re-analysis of the deposited data

Results flagged for a closer look

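Among the genes named above, the high against low difference itself differed between males and females, by the interaction term of edgeR's quasi-likelihood test, for *Atf3* (1.65, adjusted p = 0.0031), *Cd9* (0.91, adjusted p = 0.014), *Ckm* (5.45, adjusted p = 0.045), *Itgax* (1.73, adjusted p = 0.022), *Mylpf* (4.37, adjusted p = 0.023), *Nceh1* (1.35, adjusted p = 0.023), *Tcirg1* (0.83, adjusted p = 0.0079) and *Tnnt3* (5.66, adjusted p = 0.033). Each value is the male minus the female log2 fold change. The muscle genes among them rested on the BXD79/RwwJ female: without it *Ckm* was at -0.63 (adjusted p = 0.82), *Mylpf* was at -0.14 (adjusted p = 0.93), *Tnnt3* was at -0.39 (adjusted p = 0.88).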

How the results depend on the processing

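The counts over all genes moved by more than 1.5 times under these settings, against 3774 higher, 4290 lower, 408 at least 2-fold higher and 714 at least 2-fold lower. On log2(TPM + 1), there were 7264 higher, 998 lower, 267 at least 2-fold lower. On log2(TPM + 0.1), there were 7319 higher, 941 lower, 466 at least 2-fold lower. Without the libraries with lymph node signal, there were 2225 higher, 1944 lower, 247 at least 2-fold lower. In the libraries with lymph node signal alone, there were 604 higher, 219 lower, 178 at least 2-fold higher, 40 at least 2-fold lower. In the graded fit over the 70 libraries between the groups, there were 904 higher, 630 lower, 351 at least 2-fold lower. With 1 library per strain (53 libraries), there were 2705 lower, 326 at least 2-fold lower. With T cell and B cell scores as terms, there were 2232 lower, 166 at least 2-fold lower. With no filter on low counts, there were 935 at least 2-fold higher, 1399 at least 2-fold lower. With at least 10 counts in every library, there were 160 at least 2-fold higher, 208 at least 2-fold lower. With larger groups, a 1 in 3 share at each end, there were 316 at least 2-fold lower. With the 3 left-out mice kept, there were 1425 at least 2-fold lower. With a macrophage score as a term, there were 1257 at least 2-fold lower. With library totals in place of TMM factors, 1578 genes were lower in females, 588 in males and 62 in males by the female of their strain. Without the BXD79/RwwJ female the difference between the sexes passed for 39 and 26 genes. Replicate numbers in the labels are mouse numbers and pair nothing; with strain as the replicate block in limma-voom (correlation 0.51), 3408 genes were higher and 3275 lower. 27 of the genes named lost their call in this setting, and 18 under limma-voom without the block. Beside those given in the report, *Ciita*, *Mcm2*, *Apol7b*, *Tlr1*, *Mccc1*, *Bckdha*, *Ckm*, *Tnnt3* and *Atp2a1* lost their calls with the block. The setting changes the tool as well, so a lost call cannot be laid to the block alone. Over the 172 genes named, 3816 of 4434 values kept direction and call, 440 lost the call, 74 gained it and the rest changed sign. With T cell and B cell scores as terms, the log2 fold change changed sign for *Ccl19* 0.30, *Hcst* 0.32, *Vav1* 0.70, *Syk* 0.86, *Plcg2* 0.52, *Inpp5d* 0.58, *Cd53* 0.83, *Laptm5* 0.84, *Cx3cr1* 0.15, *Spn* 0.24, *Nfatc1* 0.14, *Ch25h* 0.17, *Ccl5* 0.0567, *Osm* 0.70, *Tnf* 0.48, *H2-DMb2* 0.29, *Ciita* 0.61, *Mcm2* 0.25, *Tlr1* 0.44, *Icam1* 0.19, *Cd55* 0.00677, *Ccr7* 0.57, *Flt3* 0.37, *Cxcr2* 0.00665, *Foxp4* 0.0685, *Treml2* 0.21 and *Nfya* 0.26. Without the libraries with lymph node signal, the log2 fold change changed sign for *Ccl19* 0.39, *Hcst* 0.39, *Vav1* 1.05, *Syk* 1.33, *Plcg2* 0.84, *Inpp5d* 0.85, *Cd53* 1.23, *Laptm5* 1.25, *Npc2* -0.0748, *Cx3cr1* 0.22, *Spn* 0.28, *Nfatc1* 0.26, *Osm* 1.08, *Tnf* 0.66, *H2-DMb2* 0.42, *Ciita* 0.81, *Mcm2* 0.38, *Apol7b* 0.10, *Tlr1* 1.41, *Icam1* 0.24, *Cd55* 0.00754, *Ccr7* 0.93, *Flt3* 0.59, *Cxcr2* 0.054, *Foxp4* 0.20 and *Nfya* 0.34. With a macrophage score as a term, the log2 fold change changed sign for *Adam17* -0.0559, *Pik3ap1* -0.83, *Ctss* -0.048, *Fabp5* 0.61, *Fcgr1* -0.058, *Lyz2* -0.34, *Spi1* -0.12, *Bcat2* 0.016, *Mccc1* 0.0405, *Bckdha* 0.0419, *Ckm* 0.00481, *Atp2a1* 1.35 and *B430306N03Rik* -0.81. In the graded fit over the 70 libraries between the groups, the log2 fold change changed sign for *Vav1* 0.29, *Nfatc1* 0.21, *Ch25h* 0.15, *Tnf* 0.26, *Ciita* 0.14, *Tlr1* 1.46, *Icam1* 0.14, *Mylpf* 0.34, *Ckm* 0.44, *Tnnt3* 0.60 and *Atp2a1* 0.56. On log2(TPM + 1), the log2 fold change changed sign for *Fabp5* 0.45 and *Mcoln1* 0.0737. On log2(TPM + 0.1), the log2 fold change changed sign for *Fabp5* 0.46 and *Mcoln1* 0.077. With the mitochondrial share as a term, the log2 fold change changed sign for *Fabp5* 0.59, *Oscar* 0.0381, *Elovl3* 1.15, *Cidea* 0.0338, *Ucp1* 0.98, *mt-Atp6* 0.0414, *Sdhb* 0.0643, *Uqcrc2* 0.0611, *Uqcrfs1* 0.15, *Cox5a* 0.084, *Bcat2* 0.0303, *Mccc1* 0.0692 and *Bckdha* 0.13. In the libraries with lymph node signal alone, the log2 fold change changed sign for *Mertk* -0.0511, *Ch25h* 0.19, *Ciita* 0.11, *Mylpf* 0.91, *Ckm* 1.92, *Tnnt3* 2.03 and *Atp2a1* 2.71. Without the BXD79/RwwJ female, the log2 fold change changed sign for *Ckm* 0.11, *Tnnt3* 0.22 and *Atp2a1* 0.30. Settings on lymph node and muscle signal, the KK/HlJ and CE/J males, the middle libraries and the mitochondrial share were chosen after seeing the data. The causes were not tested. Depth limits *Trem2* at its low end, at as few as 12 estimated counts in a library.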
